A study of Mus musculus with 9 samples.

Results

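The genes described here are 10 ligands through which tumor cells engage T cell checkpoint and costimulatory receptors, or the macrophage checkpoint in the case of *Cd47*: *Cd274*, *Pdcd1lg2*, *Cd80*, *Cd276*, *Vtcn1*, *Pvr*, *Nectin2*, *Lgals9*, *Tnfsf9* and *Cd47*. They were chosen by name, with earlier results of these data known, and all 10 had a row among the 19044 Ensembl genes of the RNA-seq count table. The cells are mouse squamous cell carcinoma (SCC) cells from a chemically induced skin tumor of FVB mice that carried floxed FAK and a K14-driven, tamoxifen-inducible Cre, which targets keratinocytes. Focal adhesion kinase (FAK, encoded by *Ptk2*) was deleted in culture with 4-hydroxytamoxifen, giving FAK-/- cells, and wild-type FAK or a kinase-deficient FAK was put back into a FAK-/- clone by retrovirus, giving FAK-WT and FAK-kd cells. All 3 cell lines therefore share the deletion of the endogenous gene and the growth medium, but the cells given a FAK construct went through hygromycin selection, which the methods do not state for FAK-/- cells, so that selection and the return of FAK cannot be told apart. Each line was measured in 3 libraries. The series calls these biological replicates but does not say whether they were separate cultures, so p-values measure the spread between these libraries. There is 1 line per FAK form, and the history of a line and its FAK form cannot be told apart.

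Checkpoint and costimulatory ligands are cell-surface or secreted proteins that set how strongly a T cell responds once it has recognized antigen. The B7 family includes PD-L1 (*Cd274*) and PD-L2 (*Pdcd1lg2*), which bind the inhibitory receptor PD-1, CD80, which binds both CD28 and the inhibitory receptor CTLA-4, and B7-H3 (*Cd276*) and B7-H4 (*Vtcn1*), which are known mainly as inhibitors. The nectin family members CD155 (*Pvr*) and CD112 (*Nectin2*) bind the activating receptor DNAM-1 and the inhibitory receptor TIGIT. Galectin-9 (*Lgals9*) is a secreted lectin reported to bind TIM-3, 4-1BB ligand (*Tnfsf9*) costimulates T cells through 4-1BB, and CD47 is the signal that restrains phagocytosis through SIRPα.

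Each FAK-WT library except the first, and every library of the other lines, held between 25304994 and 37264636 counts. FAK-WT replicate 1 held 779755, which is 2.31% of the median of the other 8 libraries. The floor of 3 counts, below which a gene was not told apart from background, corresponds to 3.78 CPM (counts scaled to library size) in that library and to between 0.0798 and 0.118 CPM in the others. CPM were scaled by edgeR's TMM factors, and differences are log2 fold changes from edgeR's quasi-likelihood test, with Benjamini-Hochberg adjustment over all 19044 genes. The threshold combined an adjusted p of at most 0.05 with a log2 fold change of 1 or more in either direction. *Ptk2* averaged 215 CPM in FAK-WT (SD 1.92, n = 3), 21.6 CPM in FAK-/- (SD 1.93) and 163 CPM in FAK-kd cells (SD 11.5). It was 1.32-fold higher in FAK-WT than in FAK-kd cells (log2 fold change 0.40, SE 0.08, edgeR adjusted p = 0.00163). The amount of FAK RNA and the kinase activity of FAK therefore cannot be told apart in that comparison. Of the keratinocyte markers listed, *Krt5*, *Krt14* and *Cdh1* had at most 8 counts in any library and 9 of the 11 with a row averaged under 1 CPM, while *Itga6* (241 CPM on average over the 9 libraries) and *Itgb4* (80.0 CPM) were expressed. The summed CPM of the keratinocyte list ranged from 229 to 244 in FAK-WT, 365 to 386 in FAK-/- cells, and 348 to 356 in the FAK-kd libraries. Nearly all of this sum was *Itga6* and *Itgb4* in each line. The sum of the fibroblast list ranged from 1605 to 1701, from 1345 to 1630 and from 1409 to 1988 CPM in the same order, nearly all of it *Col3a1*. T and B lymphocyte markers summed to at most 2.16 CPM, endothelial markers to at most 2.05 CPM and myeloid markers to at most 19.2 CPM in any library, with *Cd14* the highest of the last. These lists' part in the results below was not tested, and in such bulk samples fewer cells of a type and less RNA per cell cannot be told apart.

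The upstream sequences of *Cd80* and *Lgals9* are shown because both genes were higher in both FAK-WT and FAK-kd cells than in FAK-/- cells, and because the study concerned AP-1 and other transcription factors downstream of FAK. *Cd276* had the same pattern, but its window lies wholly within annotated exons and is not shown. They are RefSeq sequences of build GRCm38.p6, 5′ to 3′ on the strand of the gene. That of *Cd80* is chr16:38458683-38458932, plus strand, the 250 bases before the first RefSeq start listed. This window lies inside the span that GENCODE gives the gene (chr16:38455561-38496335). That of *Lgals9* is chr11:78984947-78985174, minus strand, which leaves out the bases nearest to the start because GENCODE places an exon there. Capitals mark matches to the motifs searched.
Cd80: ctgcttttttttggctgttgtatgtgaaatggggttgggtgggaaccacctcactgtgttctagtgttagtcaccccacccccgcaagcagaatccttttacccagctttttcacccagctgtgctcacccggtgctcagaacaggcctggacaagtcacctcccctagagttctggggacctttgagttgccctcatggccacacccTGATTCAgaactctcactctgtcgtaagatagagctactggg
Lgals9: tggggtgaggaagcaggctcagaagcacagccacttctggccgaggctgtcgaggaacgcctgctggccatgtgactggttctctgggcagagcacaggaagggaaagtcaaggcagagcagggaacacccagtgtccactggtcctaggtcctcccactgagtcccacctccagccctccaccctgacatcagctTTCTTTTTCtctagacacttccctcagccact

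Motifs were searched on both strands of the 250 bases before the first RefSeq start listed for each gene. They were AP-1 (TGANTCA), CRE (TGACGTCA), an interferon-response core (GAAANNGAA), GAS (TTCNNNGAA) and NF-kB. RefSeq entries were used for 8 of the 10 ligands (all except *Pvr* and *Tnfsf9*). For *Cd80*, *Cd276*, *Nectin2* and *Cd47* the window lies inside the GENCODE span of the gene, and other starts were not searched. *Cd80* held the AP-1 match TGATTCA at positions -42 to -36 from the start, a motif present in 6.87% of all 27025 promoters searched. *Lgals9* held an interferon-response core on the opposite strand, which reads TTCTTTTTC on the strand of the gene, at positions -54 to -46. *Cd274* likewise held one, which reads TTCGGTTTC on the strand of the gene, at positions -76 to -68. This core was present in 7.16% of all promoters. *Pdcd1lg2* held an NF-kB match at positions -244 to -235, against 7.01% of all promoters. No CRE match (1.62% of all promoters) or GAS match (7.18%) was in these windows, and 4 of the 8 ligands (*Cd276*, *Vtcn1*, *Nectin2* and *Cd47*) had no match to any of the motifs. A match describes letters and is not a binding site.

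The ligands of PD-1 had the lowest mean levels of the 10 in all 3 cell lines, and *Pvr*, *Cd47* and *Cd276* had the highest. In FAK-WT cells *Cd274* was not told apart from *Vtcn1*. FAK-WT replicates 2 and 3 held 16 and 17 counts of *Cd274* and 17 and 17 of *Vtcn1*. Levels between genes were compared as CPM per kb of transcript. The length was the mean over the annotated coding transcripts of a gene, so the order depends on these lengths. In FAK-WT cells *Pvr* stood at 34.5 ± 2.48 CPM per kb (SD, n = 3), followed by *Cd47* at 24.2 ± 2.80, *Cd276* at 16.8 ± 1.13 and *Cd80* at 13.3 ± 1.196. *Nectin2* at 8.33 ± 0.245 and *Tnfsf9* at 6.53 ± 1.95 CPM per kb were next in FAK-WT cells and overlapped within 1 SD. *Lgals9* was at 1.70 ± 0.181 CPM per kb there, *Vtcn1* at 0.280 ± 0.174, *Cd274* at 0.0843 ± 0.0735 and *Pdcd1lg2* at 0.0109 ± 0.00950, and the last 3 overlapped with their neighbours within 1 SD. The order differed between the lines at the top, in the middle and among the lowest genes. In FAK-/- cells *Pvr* (28.5 ± 0.524 CPM per kb) and *Cd47* (25.4 ± 2.64) overlapped within 1 SD, as did *Nectin2* (8.68 ± 0.762) and *Cd80* (7.58 ± 0.527), *Vtcn1* (0.356 ± 0.174) and *Lgals9* (0.354 ± 0.115), and *Pdcd1lg2* (0.0715 ± 0.0343) and *Cd274* (0.0655 ± 0.0140). In FAK-kd cells *Cd47* stood first at 33.7 ± 1.65 CPM per kb, above *Pvr* at 21.4 ± 1.501 and *Cd276* at 18.5 ± 0.676. Not scaled to length, the same genes stood at 58.5 ± 2.87, 62.1 ± 4.36 and 62.6 ± 2.29 CPM there, with *Cd47* below the other genes. Summed over the 10 ligands, expression ranged from 238 to 266 CPM in FAK-WT, 211 to 218 CPM in FAK-/- cells, and 224 to 237 CPM in the FAK-kd libraries.

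**Figure D1:**
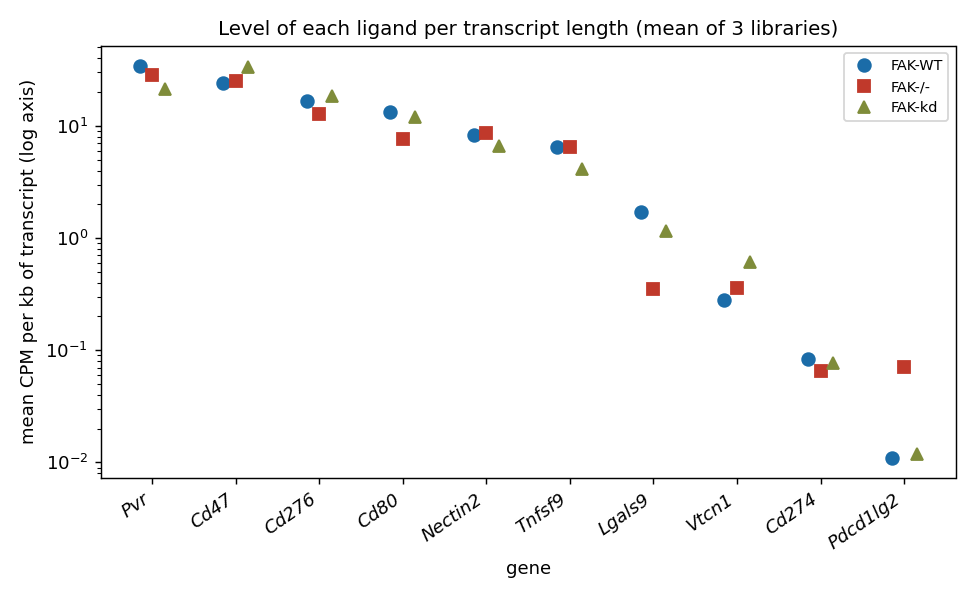
Mean level of each ligand in CPM per kb of transcript (vertical log axis) for the genes on the horizontal axis, with circles for FAK-WT, squares for FAK-/- and triangles for FAK-kd cells, each a mean of 3 libraries. Levels run from 34.5 CPM per kb for *Pvr* in FAK-WT cells to 0.0109 for *Pdcd1lg2*, and *Lgals9* is the gene below 10 CPM per kb whose FAK-/- point lies farthest under the other 2.

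PD-L1 (*Cd274*, ENSMUSG00000016496, chr19:29367455-29388095, plus strand, GRCm38) had at most 17 counts in any library. Its counts were 0, 16 and 17 in FAK-WT libraries 1 to 3, 6, 7 and 8 in FAK-/- and 10, 12 and 6 in FAK-kd libraries. In CPM these are 0, 0.426 and 0.490, then 0.180, 0.276 and 0.256, then 0.300, 0.359 and 0.176. Both deep FAK-WT libraries lay above all other libraries, and the shallow FAK-WT library, with 0 counts, allows up to 4.64 CPM (upper end of the 95% interval, counting error only). No difference passed the test: the estimate on the log2 scale was 0.89 for FAK-WT over FAK-/- (95% interval -0.19 to 1.97, edgeR adjusted p = 0.275), 0.66 over FAK-kd (-0.39 to 1.71, adjusted p = 0.436) and 0.24 for FAK-kd over FAK-/- (-0.80 to 1.28, adjusted p = 0.845). Without FAK-WT replicate 1 the first was 0.95 (adjusted p = 0.234) and the second 0.71 (adjusted p = 0.392). Of its 31-base words, 14.6% also occur in transcripts of other genes, and an exon of AC119228.1 overlaps it on the opposite strand, so its few counts are uncertain. The library kit named in the labels does not mark strand.

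PD-L2 (*Pdcd1lg2*, ENSMUSG00000016498, chr19:29410919-29471161, plus strand) starts 43.5 kb from *Cd274*. It had 0, 1 and 1 counts in FAK-WT, 6, 3 and 2 in FAK-/- and 2, 0 and 0 in FAK-kd libraries. Every FAK-WT and FAK-kd library was thus at or under 3 counts, as were 2 of the FAK-/- libraries. edgeR's filterByExpr did not keep it, no fold is given, and its adjusted p was 0.262, 0.914 and 0.203 in the comparisons of FAK-WT with FAK-/-, FAK-WT with FAK-kd and FAK-kd with FAK-/- cells.

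CD80 (*Cd80*, ENSMUSG00000075122, chr16:38455561-38496335, plus strand) was higher in both FAK-expressing lines than in FAK-/- cells. Its level was 22.7, 25.1 and 27.1 CPM in FAK-WT, 14.8, 14.7 and 13.1 CPM in FAK-/- and 22.1, 24.0 and 21.8 CPM in FAK-kd libraries. The FAK-/- libraries all lay below the other 6, and FAK-WT and FAK-kd libraries overlapped. The means were 24.96 ± 2.24, 14.2 ± 0.988 and 22.6 ± 1.23 CPM (SD, n = 3 each). *Cd80* was 1.82-fold higher in FAK-WT cells than in the FAK-/- line (log2 fold change 0.86, SE 0.10, edgeR adjusted p = 1.78e-05) and 1.59-fold higher in FAK-kd than in FAK-/- cells (0.67, SE 0.09, adjusted p = 3e-04), both under the fold-change minimum. The difference between FAK-WT and FAK-kd cells was 0.19 with a 95% interval of -0.02 to 0.40 (edgeR adjusted p = 0.234). Both calls by adjusted p held in all 16 alternatives that test against no change. With glmTreat, whose null is any change up to the fold-change minimum, the adjusted p was 1 for both, as it was for every other ligand call under that minimum.

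B7-H3 (*Cd276*, ENSMUSG00000035914, chr9:58524298-58555437, minus strand) was likewise lowest in FAK-/- cells. It was at 52.9, 60.4 and 57.7 CPM in FAK-WT, 44.3, 41.7 and 45.0 CPM in FAK-/- and 59.99, 64.1 and 63.8 CPM in FAK-kd libraries. No FAK-/- library reached the lowest library of either FAK-expressing line. On the log2 scale the difference was 0.41 for FAK-WT over FAK-/- (SE 0.08, edgeR adjusted p = 0.00196), 0.52 for FAK-kd over FAK-/- (SE 0.08, adjusted p = 0.00046) and -0.11 for FAK-WT over FAK-kd (95% interval -0.28 to 0.07, adjusted p = 0.443). The first 2 calls, also under the fold-change minimum, held in all 16 alternatives other than glmTreat. Of its 31-base words, 10.5% are shared with Gm10657, which overlaps an exon of *Cd276* on the opposite strand.

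B7-H4 (*Vtcn1*, ENSMUSG00000051076, chr3:100825459-100896922, plus strand) was low in all lines and highest in FAK-kd cells. Its counts were 1, 17 and 17 in FAK-WT, 29, 36 and 16 in FAK-/- and 48, 52 and 61 in FAK-kd libraries. In CPM these are 1.26, 0.452 and 0.490, then 0.869, 1.42 and 0.512, then 1.44, 1.56 and 1.79. The FAK-kd libraries lay above all others, and the value of FAK-WT replicate 1 rests on 1 count (95% interval 0.0319 to 7.01 CPM, counting error only). The FAK-WT level was 3.21-fold lower than the FAK-kd level, which is past the threshold (log2 fold change -1.68, SE 0.42, edgeR adjusted p = 0.0103). This call was lost without FAK-WT replicate 2 (adjusted p = 0.111) or 3 (adjusted p = 0.0889), when 1 of the 2 FAK-WT libraries left was the shallow one, and with glmTreat (adjusted p = 0.433), and it was -1.75 (adjusted p = 0.007) without the shallow library. The other differences, -0.90 for FAK-WT over FAK-/- (edgeR adjusted p = 0.178) and 0.78 for FAK-kd over FAK-/- (adjusted p = 0.225), did not pass. Without FAK-/- replicate 3 the former was -1.20 (edgeR adjusted p = 0.0275) and passed.

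CD155 (*Pvr*, ENSMUSG00000040511, chr7:19903578-19921160, minus strand) differed between all 3 lines and was the one ligand of the 10 highest in FAK-WT, intermediate in FAK-/- and lowest in FAK-kd cells by adjusted p. It was at 91.9, 103.8 and 104.8 CPM in FAK-WT, 81.7, 84.5 and 82.0 CPM in FAK-/- and 57.5, 66.2 and 62.7 CPM in FAK-kd libraries, with no overlap between any of the lines. *Pvr* was 1.65-fold higher in FAK-WT than in FAK-kd cells (log2 fold change 0.72, SE 0.08, edgeR adjusted p = 6.92e-06), a call that held in all 16 alternatives other than glmTreat. Its log2 fold change was -0.41 for FAK-kd over FAK-/- (SE 0.07, edgeR adjusted p = 0.00215) and 0.31 for FAK-WT over FAK-/- (SE 0.08, adjusted p = 0.0103). The last call was lost without FAK-WT replicate 2 (edgeR adjusted p = 0.0904) or 3 (adjusted p = 0.107). None of the 3 reached the fold-change minimum.

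CD112 (*Nectin2*, ENSMUSG00000062300, chr7:19716644-19750483, minus strand), which binds DNAM-1 and TIGIT as CD155 does and lies on the same chromosome, was lowest in FAK-kd cells as well. It was at 18.9, 19.7 and 20.0 CPM in FAK-WT, 20.7, 18.4 and 21.9 CPM in FAK-/- and 14.5, 15.5 and 16.2 CPM in FAK-kd libraries. The FAK-kd libraries lay below the other 6, and FAK-WT and FAK-/- libraries overlapped. On the log2 scale the difference was 0.36 for FAK-WT over FAK-kd (SE 0.10, edgeR adjusted p = 0.0208), -0.41 for FAK-kd over FAK-/- (SE 0.09, adjusted p = 0.0141) and -0.04 for FAK-WT over FAK-/- (95% interval -0.26 to 0.17, adjusted p = 0.835). The first call was lost without FAK-WT replicate 2 (edgeR adjusted p = 0.0863) or 3 (adjusted p = 0.106) and without FAK-kd replicate 1 (adjusted p = 0.0503) or 2 (adjusted p = 0.0538), and the second without FAK-kd replicate 2 (adjusted p = 0.059). An exon of Gm20512 overlaps it on the opposite strand, with 3.15% of its 31-base words shared.

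Galectin-9 (*Lgals9*, ENSMUSG00000001123, chr11:78962974-78984946, minus strand) was higher in both FAK-expressing lines than in FAK-/- cells and was the only ligand of the 10 past the threshold in both of those comparisons. Its counts were 2, 78 and 87 in FAK-WT, 12, 17 and 14 in FAK-/- and 51, 62 and 49 in FAK-kd libraries. In CPM these are 2.52, 2.08 and 2.51, then 0.360, 0.670 and 0.448, then 1.53, 1.86 and 1.44, so that no line overlapped with another. The means were 2.37 ± 0.253, 0.493 ± 0.160 and 1.61 ± 0.222 CPM (SD, n = 3 each). *Lgals9* was 4.72-fold higher in FAK-WT cells than in the FAK-/- line (log2 fold change 2.24, SE 0.32, edgeR adjusted p = 0.000145) and 3.29-fold higher in FAK-kd than in FAK-/- cells (1.72, SE 0.31, adjusted p = 0.00249). With glmTreat the former held (adjusted p = 0.00953) and the latter did not (adjusted p = 0.398). Between FAK-WT and FAK-kd cells it was 0.52 (95% interval -0.11 to 1.16, edgeR adjusted p = 0.28), which did not pass. Without FAK-WT replicate 1, whose 2 counts allow 0.305 to 9.09 CPM, the first was 2.23 (edgeR adjusted p = 0.000172). No transcript word of *Lgals9* was shared with another gene.

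4-1BB ligand (*Tnfsf9*, ENSMUSG00000035678, chr17:57105325-57107757, plus strand) was at 11.3, 6.97 and 6.98 CPM in FAK-WT, 8.24, 7.73 and 9.12 CPM in FAK-/- and 5.01, 4.91 and 6.18 CPM in FAK-kd libraries. The FAK-kd libraries lay below all others, and the highest value, in FAK-WT replicate 1, rests on 9 counts. *Tnfsf9* was 1.56-fold lower in FAK-kd than in FAK-/- cells (log2 fold change -0.64, SE 0.15, edgeR adjusted p = 0.0171), a call lost without FAK-kd replicate 1 (adjusted p = 0.0664) or 2 (adjusted p = 0.1). The log2 fold changes of FAK-WT over FAK-kd (0.44, 95% interval 0.08 to 0.80, edgeR adjusted p = 0.0897) and over FAK-/- cells (-0.20, -0.56 to 0.15, adjusted p = 0.478) did not pass. The former passed by adjusted p without FAK-/- replicate 3 (edgeR adjusted p = 0.0384). Of its 31-base words, 12.9% are shared with Gm11110, which overlaps it on the opposite strand.

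CD47 (*Cd47*, ENSMUSG00000055447, chr16:49800533-49915010, plus strand) was highest in FAK-kd cells. It was at 36.5, 43.6 and 45.8 CPM in FAK-WT, 46.9, 46.4 and 38.8 CPM in FAK-/- and 61.6, 58.2 and 55.8 CPM in FAK-kd libraries. The FAK-kd libraries lay above the other 6, among which the FAK-WT and FAK-/- libraries overlapped. On the log2 scale the difference was -0.42 for FAK-WT over FAK-kd (SE 0.10, edgeR adjusted p = 0.00758), 0.41 for FAK-kd over FAK-/- (SE 0.09, adjusted p = 0.0133) and -0.01 for FAK-WT over FAK-/- (95% interval -0.23 to 0.20, adjusted p = 0.982). The first call was lost without FAK-WT replicate 2 (edgeR adjusted p = 0.0629), and the second without any 1 of the FAK-kd replicates (adjusted p between 0.0614 and 0.0799).

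**Figure D2:**
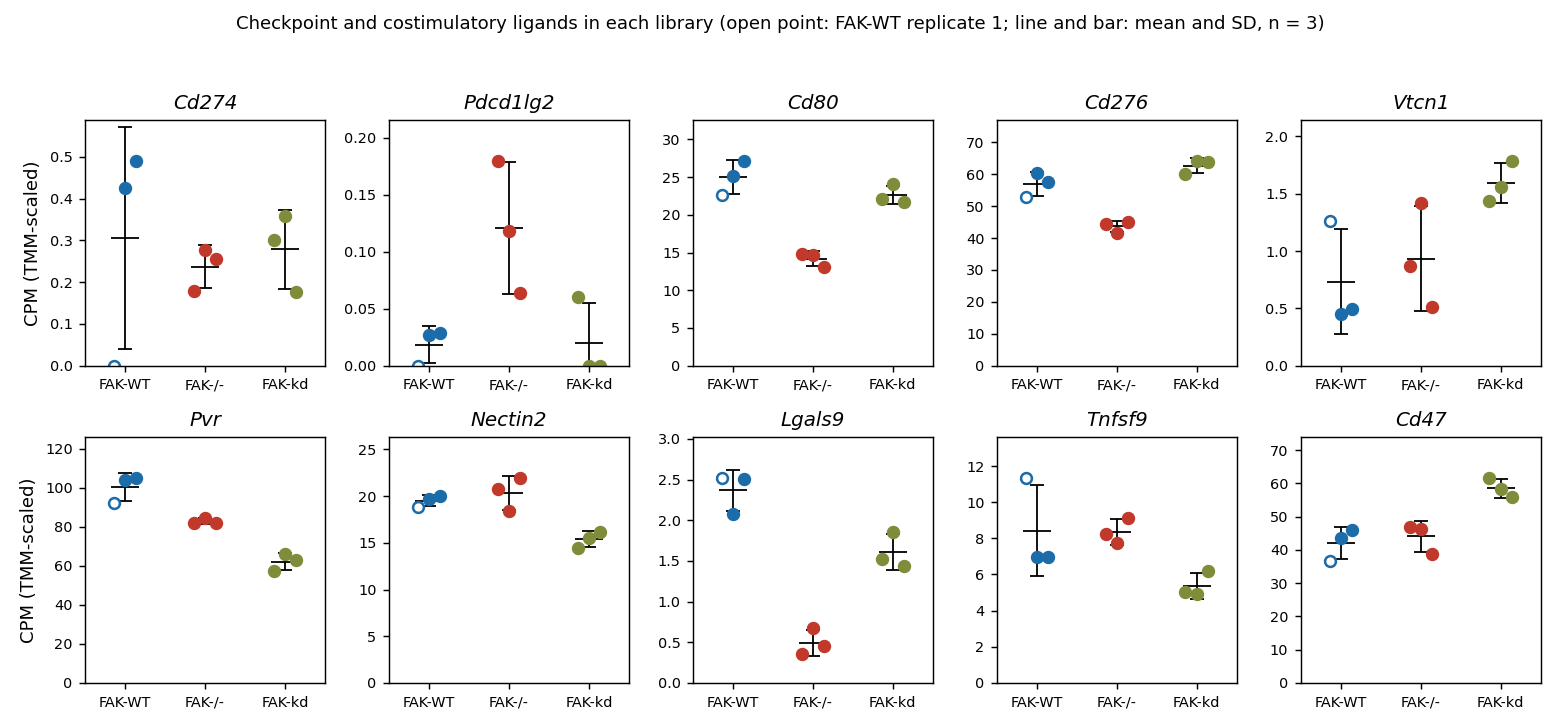
CPM (vertical axes, linear from 0) of each ligand in every library of FAK-WT, FAK-/- and FAK-kd cells, with a point per library, the open point for FAK-WT replicate 1 at 779755 counts, and lines and bars for the mean and SD of 3 libraries. *Cd80*, *Cd276* and *Lgals9* are lowest in all 3 FAK-/- libraries, *Pvr*, *Nectin2* and *Tnfsf9* are lowest and *Cd47* and *Vtcn1* highest in all 3 FAK-kd libraries, and *Cd274* and *Pdcd1lg2* stay under 0.5 CPM.

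Counted over the 10 ligands, 1 was past the threshold as higher in FAK-WT cells than in the FAK-/- line (*Lgals9*) and 0 were lower, where 2.32% and 3.06% of all 19044 genes were. By adjusted p alone, 4 were higher (*Cd80*, *Cd276*, *Pvr* and *Lgals9*) and 0 lower, against 8.01% and 9.96% of all genes. For FAK-WT over FAK-kd cells 0 were higher and 1 was lower (*Vtcn1*), against 2.37% and 2.89% of all genes. By adjusted p alone 2 were higher (*Pvr* and *Nectin2*) and 2 lower (*Cd47* and *Vtcn1*), against 7.58% and 10.2%. For FAK-kd over FAK-/- cells 1 was higher (*Lgals9*) and 0 were lower, against 0.914% and 1.09% of all genes. By adjusted p alone 4 were higher (*Cd80*, *Cd276*, *Lgals9* and *Cd47*) and 3 lower (*Pvr*, *Nectin2* and *Tnfsf9*), against 3.97% and 3.88%. The libraries of the 2 lines did not overlap for 4, 6 and 8 of the 9 ligands that filterByExpr kept, in the same order of comparisons, against 42.5%, 47.7% and 35.3% of the 12235 genes kept. The first of these shares is near the background, and with 10 genes a single call is already a larger share than any of the backgrounds past the threshold. The shares over all 19044 genes also include genes that filterByExpr did not keep, while 9 of the 10 ligands were kept. The median log2 fold change over the 10 ligands, which include *Cd274* and *Pdcd1lg2* at few counts, was 0.15, 0.38 and 0.32. The median over all genes was 0 in each comparison, and that over the 12235 genes kept was -0.024, -0.020 and 0.0055. By unadjusted p of at most 0.05 in edgeR, 4 were higher and 0 lower in the first comparison, 3 higher and 2 lower in the second, and 5 higher and 4 lower in the third. Over all genes the shares by unadjusted p were 13.4% and 15.6%, 13% and 15.5%, and 10.2% and 10.3%. The 3 comparisons share libraries and are not independent of each other.

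**Figure D3:**
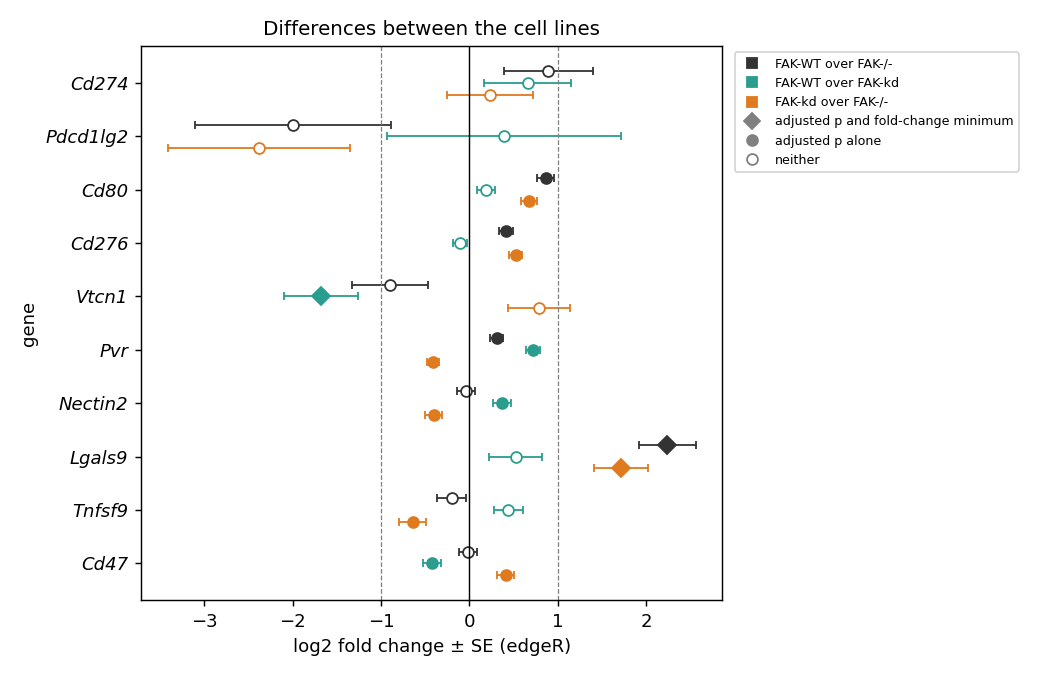
Log2 fold change ± SE (horizontal axis) of each ligand (vertical axis) for the 3 comparisons, with diamonds past adjusted p and the fold-change minimum, filled circles past adjusted p alone and open circles past neither. Dashed lines mark a log2 fold change of 1 in either direction, which *Lgals9* passes in 2 comparisons (2.24 and 1.72) and *Vtcn1* in 1 (-1.68). The estimates for *Pdcd1lg2* rest on at most 6 counts a library.

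Of 46 further ligands and surface or secreted molecules that act on T and natural killer cells, 39 had a row and 24 of these averaged under 1 CPM. For FAK-WT over FAK-/- cells 1 was higher and 4 were lower past the threshold, for FAK-WT over FAK-kd cells 1 was higher and 8 were lower, and for FAK-kd over FAK-/- cells 1 was higher and 1 lower. The shares over all genes were 2.32% and 3.06%, 2.37% and 2.89%, and 0.914% and 1.09% in the same order. *Ceacam1*, an adhesion molecule also reported to bind TIM-3, was at 3.70 ± 1.16 CPM (SD, n = 3) in FAK-WT, 22.8 ± 0.673 in FAK-/- cells, and 6.54 ± 1.28 in the FAK-kd cells, and it passed in all 3 comparisons (log2 fold changes -2.88, -1.08 and -1.80, edgeR adjusted p = 9.38e-09, 0.000225 and 6.68e-07). *Cd200*, whose receptor restrains myeloid cells, was lower in FAK-WT than in both other lines (log2 fold changes -2.29 and -1.77, edgeR adjusted p = 8.86e-07 and 1.21e-05). The same held for *Nt5e*, the ectoenzyme CD73 that makes adenosine (-1.69 and -1.10, edgeR adjusted p = 1.47e-07 and 1.27e-05), and for *Icosl*, the ligand of the costimulatory receptor ICOS (-1.42 and -2.20, adjusted p = 0.024 and 0.00116). *Vcam1*, an integrin ligand for T cell adhesion, was higher in FAK-WT than in FAK-kd cells (1.10, edgeR adjusted p = 7.91e-06). *Cadm1*, a ligand of CRTAM, was higher in FAK-kd than in FAK-/- cells (1.06, edgeR adjusted p = 9.18e-06). For FAK-WT over FAK-/- both genes passed by adjusted p alone, *Vcam1* at 0.98 (edgeR adjusted p = 2.48e-05) and *Cadm1* at 0.94 (adjusted p = 1.79e-05). *Vcam1* did not pass for FAK-kd over FAK-/- (-0.12, edgeR adjusted p = 0.59), nor *Cadm1* for FAK-WT over FAK-kd (-0.13, adjusted p = 0.473). Of the genes past the threshold in this list, *Ido1*, *Vsir*, *Raet1d*, *Raet1e* and *Clec2d* averaged under 1 CPM. The median log2 fold change of the 39 was -0.02, -0.27 and 0.17 in the 3 comparisons.

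All 31 genes listed as regulators of PD-L1 (its transcription, the interferon-γ pathway, and the stability of the protein) had a row, and 30 averaged at least 1 CPM. Past the threshold, 0 were higher and 1 was lower in FAK-WT cells than in the FAK-/- line and likewise against FAK-kd cells, and none differed past it between FAK-kd and FAK-/- cells, where 2 were higher and 2 lower by adjusted p alone. The gene was *Bcl3*, an IκB-family cofactor of NF-κB named after its values were seen, which had at most 3 counts in every FAK-WT library, 14 to 24 in FAK-/- and 37 to 48 in FAK-kd libraries. By adjusted p alone, 3 were higher and 5 lower for FAK-WT over FAK-/- cells, and 2 higher and 6 lower for FAK-WT over FAK-kd cells. Over all genes these shares were 8.01% and 9.96%, and 7.58% and 10.2%, so that the numbers higher are near the background. These shares include genes that filterByExpr did not keep, while all 31 regulators were kept. The numbers lower are therefore not shown to exceed the background. By unadjusted edgeR p of at most 0.05, 5 were higher in each of the 3 comparisons and 10, 11 and 6 were lower. The shares of all genes higher and lower by that measure were 13.4% and 15.6%, 13% and 15.5%, and 10.2% and 10.3%. The median log2 fold change was -0.16, -0.03 and 0.02 in the 3 comparisons. The receptor chains of interferon-γ, *Ifngr1* (24.1 CPM on average) and *Ifngr2* (38.8 CPM), and *Jak1* (202 CPM) were expressed in these cells. Per kb of transcript they averaged 11.4, 10.5 and 41.3 CPM, and *Cd274* 0.0756.

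*Cd274* and *Pdcd1lg2* stood among expressed genes. Of the 13 genes listed for their region of chromosome 19, 12 had a row, and from *Rcl1* (at -266.1 kb from the start of *Cd274*) to *Uhrf2* (at 663.1 kb) they span both sides. *Jak2*, a kinase of the interferon-γ pathway whose start lies at -115.6 kb, was at 22.9 ± 0.771 CPM (SD, n = 3) in FAK-WT, 26.5 ± 3.77 in FAK-/- cells, and 26.9 ± 3.32 in the FAK-kd cells. *Rcl1*, *Ric1*, *Ermp1*, *Brd10*, *Ranbp6* and *Uhrf2* averaged between 19.0 and 179 CPM, and none of them passed the threshold in any comparison. *Insl6*, which starts at -46.1 kb, had at most 5 counts in the FAK-WT libraries and 10 to 20 in the others, and *Mlana* had at most 1 count in any library. *Il33*, the cytokine gene that starts 557.7 kb after *Cd274*, was at 141 ± 3.47 CPM in FAK-WT, 58.7 ± 10.9 in FAK-/- cells, and 32.2 ± 9.22 in the FAK-kd cells. It was the one gene of the region past the threshold as higher, for FAK-WT over FAK-/- (log2 fold change 1.28, SE 0.17, edgeR adjusted p = 8.77e-05) and over FAK-kd cells (2.14, SE 0.18, adjusted p = 6.22e-07), while *Insl6* was lower in both (-2.32 and -2.0, adjusted p = 0.00622 and 0.016). Past the threshold the shares over all genes were 2.32% and 3.06%, and 2.37% and 2.89%. By adjusted p alone 2 of the 12 were higher and 1 lower for FAK-WT over FAK-/- cells, *Ric1* among the former (0.32, edgeR adjusted p = 0.0274). Against FAK-kd cells 3 were higher and 2 lower, and for FAK-kd over FAK-/- cells 0 and 1. The shares of all genes by adjusted p alone were 8.01% and 9.96%, 7.58% and 10.2%, and 3.97% and 3.88%.

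**Figure D4:**
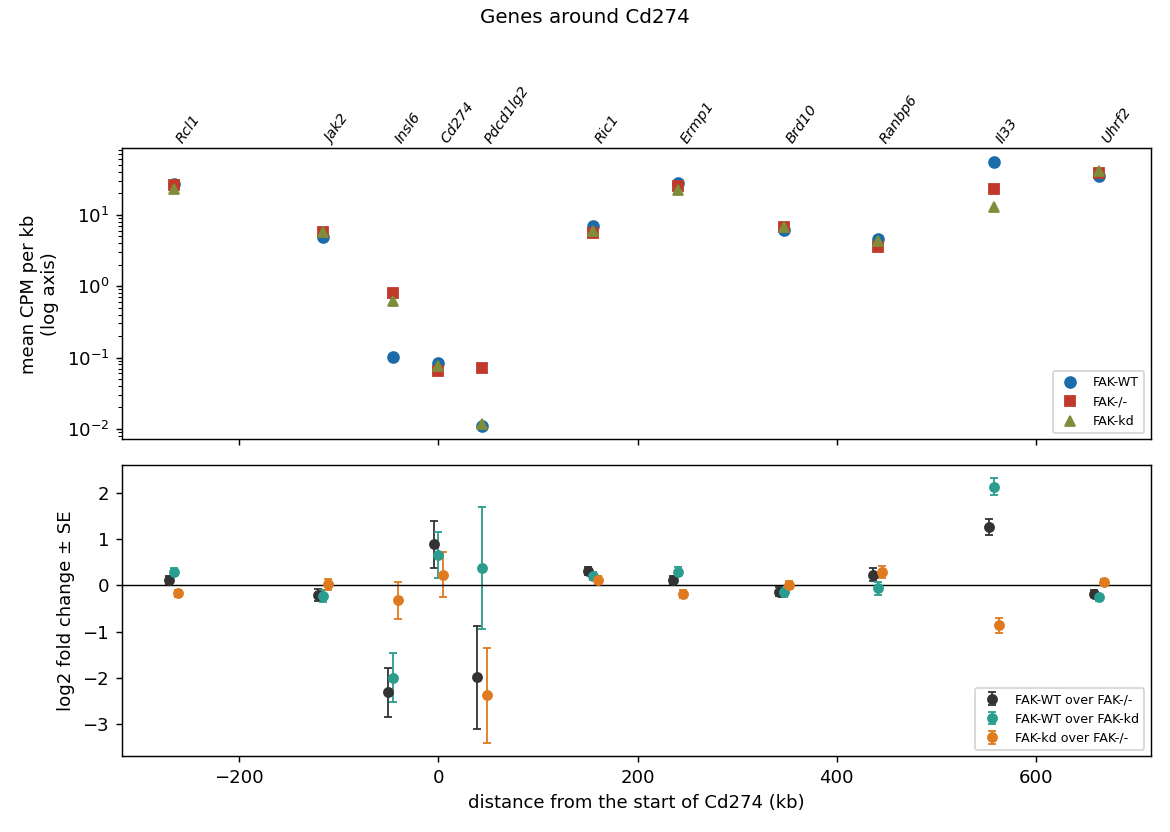
Genes around *Cd274* by the distance of their start from that of *Cd274* in kb (horizontal axis), with the mean level in CPM per kb of transcript (upper panel, log axis, circles for FAK-WT, squares for FAK-/-, triangles for FAK-kd) and the log2 fold change ± SE of the 3 comparisons (lower panel). *Mlana*, with at most 1 count a library, is left out. *Insl6*, *Cd274* and *Pdcd1lg2* lie below the other genes, and *Il33* has the largest positive fold changes.

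For each ligand past the threshold, the 2 genes whose log2 CPM followed it most closely over the 9 libraries were found among the 8647 genes with a mean of at least 10 CPM. For *Lgals9* these were *Dglucy* (Pearson r = 0.987) and *Drosha* (r = 0.973), and for *Vtcn1* they were *Etnk1* (r = 0.972) and *Il6st* (r = 0.960). Without FAK-WT replicate 1 the lists changed to *Dglucy* (r = 0.987) and *Grk5* (r = 0.979) for *Lgals9*, and to *Tmem74* (r = 0.995) and *Etnk1* (r = 0.989) for *Vtcn1*. The points are libraries of 3 lines, so each r mostly reflects 3 levels, and the values are a description of likeness only.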

How the data were processed

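RNA-seq of 9 libraries, 3 of each line, was analysed, grouped by the sample labels. The authors pseudoaligned paired-end reads with kallisto 0.43.1 and summarized them to genes with tximport (builds GRCm38 and mm10 in the submitters' notes). The values deposited by the authors are estimated counts rounded to whole numbers, not scaled to depth, with genes at zero throughout removed. All 9 libraries were fitted in edgeR 4.0.16 (R 4.3.3) with TMM scaling, no filter and cell line as the only factor (quasi-likelihood test). The SE is the log2 fold change over the root of F. The methods of the study do not name the comparison of FAK-kd with FAK-/- cells. Symbols, positions and lengths came from GENCODE for GRCm38 (18856 of 19044 identifiers had a symbol), and upstream sequences from RefSeq. Intervals per library (exact binomial, Clopper-Pearson, 95%) and the floor of 3 counts describe counting error and nothing else. The steps were tested on simulated data. The members and gene lists were chosen with earlier results of these data known. Genes named are all members and *Ptk2*, the region of *Cd274*, up to 6 genes past the threshold per list and comparison with a mean of at least 1 CPM, and the 2 closest in pattern to each member past it. *Bcl3*, the keratinocyte, fibroblast and myeloid markers, and genes named as under 1 CPM or as expressed are outside that rule and were named after their values were seen. The alternatives were DESeq2 1.42.0, edgeR with the size factors of DESeq2 or without TMM, filterByExpr, at least 10 counts in every library, fits of 2 lines only, a replicate block, glmTreat, no fold-change minimum, and each library left out.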

Additional observations from a re-analysis of the deposited data

How the results depend on the processing

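Of the alternatives tried, those that moved the number of ligands past the threshold are given in the order FAK-WT over FAK-/-, FAK-WT over FAK-kd and FAK-kd over FAK-/-, from 1, 1 and 1. When every library had to hold 10 or more counts, which left 5 of the 10 ligands and 8083 genes, it was 0, 0 and 0, and all genes past the threshold numbered 160, 131 and 50 in place of 1024, 1001 and 382. With glmTreat it was 1, 0 and 0 (*Lgals9* kept for FAK-WT over FAK-/- and lost for FAK-kd over FAK-/-, *Vtcn1* lost), and over all genes 433, 450 and 117. By adjusted p alone it was 4, 4 and 7, and over all genes 3422, 3376 and 1494. With each library left out it ranged from 1 to 2, from 0 to 1, and from 1 to 1, and over all genes from 760 to 1025, from 775 to 1150 and from 262 to 396. *Vtcn1* accounted for both changes, as given beside it. DESeq2 called 1, 1 and 1 ligands, the same genes as edgeR, and did not test 1 of the 10. Its counts over all genes were 747, 754 and 262.

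The replicate block gave 1, 1 and 1 ligands past the threshold and 941, 890 and 359 genes, and no member call past the threshold changed with it. By adjusted p alone, *Nectin2* was lost for FAK-WT over FAK-kd (edgeR adjusted p = 0.0524). Same-numbered libraries did not deviate together (mean r = -0.00768 over 9 pairs, 0.00353 over 18 pairs with different numbers), so the numbers were not used as a block.

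Values near 0 changed sign. That of *Cd47* for FAK-WT over FAK-/- was 0.00053 with DESeq2, 0.0043 with filterByExpr and 0.0089 with the replicate block, and lay between -0.078 and 0.048 when single libraries were left out (above 0 without FAK-WT replicate 1, FAK-/- replicate 1 or FAK-/- replicate 2). That of *Nectin2* in this comparison ranged from -0.10 to 0.014, above 0 without FAK-/- replicate 3. *Pdcd1lg2*, at 0 to 2 counts in these lines, ranged from -0.10 to 2.87 for FAK-WT over FAK-kd, below 0 without FAK-kd replicate 2 or 3. For log2 fold changes of single genes (the ligands and *Ptk2*), 529 of the values under alternatives kept their direction and their side of the threshold. Of the rest, 9 changed direction, 4 fell short of the threshold where the main fit passed it, and 1 passed it where the main fit did not. The 4 belong to *Vtcn1* for FAK-WT over FAK-kd and *Lgals9* for FAK-kd over FAK-/- cells. Most of the 529 belong to differences not past the threshold in the main fit, so their number says little of the calls. The depth of FAK-WT replicate 1 limits what it can show of *Cd274*, *Pdcd1lg2*, *Vtcn1* and *Lgals9*. Causes were not tested.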

Other observations

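A list of 23 receptors, most of them known from immune cells, holds receptors of these ligands and further ones that do not bind them. Of the 23, 18 had a row in these tumor cell libraries, with 13 of the 18 averaging under 1 CPM. *Pdcd1* and *Cd28* had at most 1 count in any library and *Sirpa* at most 5. Those of the list above 1 CPM were *Rgmb*, which binds PD-L2 (112 CPM on average over the 9 libraries), *Tnfrsf9*, which encodes 4-1BB (90.9 CPM), *Tigit* (7.72 CPM), *Trem2* (7.01 CPM) and *Havcr2*, which encodes TIM-3 (1.87 CPM). The T and B lymphocyte list, which includes *Ptprc*, summed to at most 2.16 CPM in any library.

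*Havcr2* was the 1 receptor past the threshold as higher in FAK-WT cells than in the FAK-/- line (log2 fold change 2.21, SE 0.29, edgeR adjusted p = 6.43e-05) and than in FAK-kd (1.27, SE 0.28, adjusted p = 0.00438). It averaged 3.48 CPM in FAK-WT (SD 0.355, n = 3), 0.729 CPM in FAK-/- (SD 0.210) and 1.398 CPM in FAK-kd cells (SD 0.0635), and FAK-WT replicate 1 gave 3 counts. *Tnfrsf9* was at 75.7 ± 8.26, 122 ± 8.60 and 75.5 ± 13.5 CPM in the same order, lower in FAK-WT (-0.73, edgeR adjusted p = 0.000317) and in FAK-kd (-0.69, adjusted p = 0.000783) than in FAK-/- cells by adjusted p alone. *Sirpa* was the 1 receptor lower past the threshold in FAK-kd than in FAK-/- cells, with 0 counts in every FAK-kd and 2 to 5 in the FAK-/- libraries, so no fold is given. The shares of all genes past the threshold, higher and lower, were 2.32% and 3.06%, 2.37% and 2.89%, and 0.914% and 1.09%. By adjusted p alone the receptors higher and lower numbered 2 and 2, 2 and 0, and 0 and 3 in the 3 comparisons. Over all genes these shares were 8.01% and 9.96%, 7.58% and 10.2%, and 3.97% and 3.88%. *Rgmb*, *Tnfrsf9*, *Tigit*, *Trem2* and *Sirpa* were named after their values were seen.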
